A study of Mus with 51 samples.

Results

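Translation initiation factors are the proteins that load the initiator tRNA and the small ribosomal subunit onto an mRNA and find its start codon. The genes described here are the rows of the deposited count table whose symbol begins with Eif1 to Eif6, leaving out 4 Eif2ak genes, which encode kinases, and 7 symbols marked as pseudogenes. This rule gave 51 genes of 34923 features. It goes by name and not by counts, but it was chosen with earlier results of these data known. The libraries hold poly-adenylated RNA of T cells sorted from lymph nodes of mice labelled 5C.C7 TCR transgenic, strain B10.A-Rag2tm1FwaH2-T18aTg (Tcra5CC7,Tcrb5CC7)lwep. All groups therefore share the Rag2 mutation and a transgenic T cell receptor, which is known to recognize a moth cytochrome c peptide (MCC). Mice without Rag2 are known to make no B cells, and no T cells beyond those a transgenic receptor allows. Groups without peptide (NP), with GP, with MCC, and with MCC and GP together (MCC+GP) were collected at 1, 6 or 24 h. GP is named in the labels only by these letters. Cells given MCC, alone or with GP, were divided by sorting into CD69-hi (high) and CD69-lo (low). T cells display the CD69 receptor on their surface soon after antigen signalling. The 51 libraries fall into 18 groups, of which 15 hold 3 libraries and 3 hold 2 (NP, GP and MCC CD69-lo at 6 h). Age, sex, the number of animals pooled and the way peptide was given are not stated in the labels, and nothing there says that replicates came from separate animals, so p-values measure the spread between these libraries.

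Initiation runs in steps that these genes map onto. eIF2 binds GTP and the initiator tRNA as the ternary complex, and eIF2B recharges eIF2 with GTP. eIF1, eIF1A and eIF3 bind the small subunit, while eIF4E binds the mRNA cap and recruits the scaffold eIF4G and the helicase eIF4A as the complex eIF4F. The 4E-binding proteins block eIF4E until mTORC1 phosphorylates them, eIF5 and eIF5B complete the joining of subunits, and eIF5A acts mainly in elongation. Naive T cells are small and translate little, and they enlarge and raise protein synthesis after antigen recognition.

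The median library held 5436653 counts, and the range was 29030 to 10278776. MCC+GP CD69-lo at 24 h, with 29030 to 301455 counts, was the shallowest group, and the MCC CD69-hi libraries of 1 h held 852129 to 3346959. All 8 T cell markers were detected in every group, with a summed level of 9445 to 17206 CPM (counts scaled to equal library totals) outside MCC+GP CD69-lo at 24 h and 3467 to 7716 CPM within it. RNA of markers listed for other cells was present and uneven. The 10 B cell markers, none of them at 0 in any group, summed to 205 ± 49.7 CPM (SD, n = 3) in NP at 1 h and 1722 ± 489 in MCC CD69-hi at 1 h. At 6 h the sums were 193 ± 74.4 (n = 2) and 685 ± 288 (n = 3), and at 24 h they were 209 ± 60.1 and 59.4 ± 36.6 (n = 3 each). The 12 myeloid and dendritic markers summed to 53.9 ± 15 CPM in NP and 242 ± 71.0 in MCC CD69-hi at 1 h, and to 1534 ± 692 CPM in MCC+GP CD69-lo at 24 h. The 5 MHC class II genes summed to 405 ± 140 CPM in NP and 4049 ± 1150 in MCC CD69-hi at 1 h (n = 3 each). The 4 markers listed for stroma and erythroid cells (Col1a1, Pecam1, Hba-a1 and Hbb-bs) went the other way at later times. Their sums were 475 to 483 CPM over the NP libraries of 6 h and 19.7 to 48.1 CPM over those of MCC CD69-hi. At 24 h the sums ran from 323 to 357 CPM and from 9.53 to 17.4 CPM. These sums were not split by gene, and whether other cells or the T cells held this RNA was not tested. The part of these 3 marker lists in the results was not tested. Libraries also stood apart by sex-linked RNA. Read from the wells in their titles, they lie in consecutive runs of wells on the plate. Leaving out the 3 shallow MCC+GP CD69-lo libraries of 24 h, Xist, which the inactive X chromosome of female cells transcribes, reached at most 1.01 CPM in the first run and in the last wells, 301 to 1162 CPM in the second run and 33.6 to 597 CPM in the third. In that second run at 24 h, Y-linked Ddx3y was between 0.388 and 16.1 CPM, against 114 to 162 CPM in the third run at 24 h. In the shallow libraries Xist and Ddx3y were at 133 and 0 CPM in replicate 2, which lies in the second run, and at 1040 and 41.7 CPM in replicate 3, which lies in the third. Apart from the shallow one, the 5 libraries of the second run at 24 h are replicate 2 of NP, GP, MCC CD69-hi and MCC+GP CD69-hi and replicate 1 of MCC CD69-lo at 24 h, and results on Eif2s3y and Eif2s3x are also given with such a library left out.

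Most initiation factor genes were higher in MCC CD69-hi cells than in NP cells from 6 h on. Of the 50 members with enough counts to test, 20 rose and 3 fell in MCC CD69-hi against NP at 1 h, 39 rose and 2 fell at 6 h, and 43 rose and 3 fell at 24 h. These calls come from edgeR's quasi-likelihood test at an adjusted p under 0.05 over 17211 genes. Over all those genes the share called in either direction was 29.4% at 1 h, 46.7% at 6 h and 57.8% at 24 h, and the share called higher was 12.4%, 23.2% and 29.2%, with 17%, 23.6% and 28.7% lower. The members' shares called were 46%, 82% and 92%, and 40%, 78% and 86% rose. Their median log2 fold change was 0.30 at 1 h, 1.43 at 6 h and 1.76 at 24 h, beside -0.05, 0.00 and -0.14 over all genes tested. Libraries did not overlap for 25 of the 50 members at 1 h, for 44 at 6 h and for 49 at 24 h, beside 36.9%, 65.6% and 68.7% of all genes tested. Of the members 20 rose at all 3 times, 38 rose at both 6 and 24 h, and 44 rose at some time, beside 4.68%, 17.9% and 39.3% of all genes. The member not tested, Eif4e1b, a form of eIF4E known from oocytes, had 0 CPM in all but 2 of the 51 libraries. Because these are bulk samples, fewer cells of a type and less RNA per cell cannot be told apart, and a rise is a rise relative to all other RNA.

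Leaving out replicate 3 of NP at 1 h lowered the count of members called at 1 h from 23 to 15, of which 12 rose and 3 fell. The calls lost were those of Eif1, Eif1ax, Eif3a, Eif3d, Eif3g, Eif3i, Eif4e2 and Eif6. Here and below, member counts from fits without 1 library stand without the share of all genes called in them. A change in such a count may therefore not be particular to the members. With B cell RNA as a covariate 18 members were called at 1 h, 41 at 6 h and 45 at 24 h, beside 16.8%, 44.1% and 53.4% of all genes. At 1 h the calls of Eif2b3, Eif3a, Eif3i, Eif4a2, Eif4ebp1 and Eif6 were lost there, at adjusted p from 0.0849 to 0.30, and that of Eif4e3 was gained. Normalization with RLE size factors moved the median of all genes at 24 h from -0.14 to -0.30 and turned the split of all called genes at 1 h from 2131 higher and 2922 lower to 2555 higher and 2127 lower. Of the members, 23 rose and 3 fell at 1 h under that scaling. The part of other cells' RNA in the single values at 1 h was not tested beyond the covariate.

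**Figure D1:**
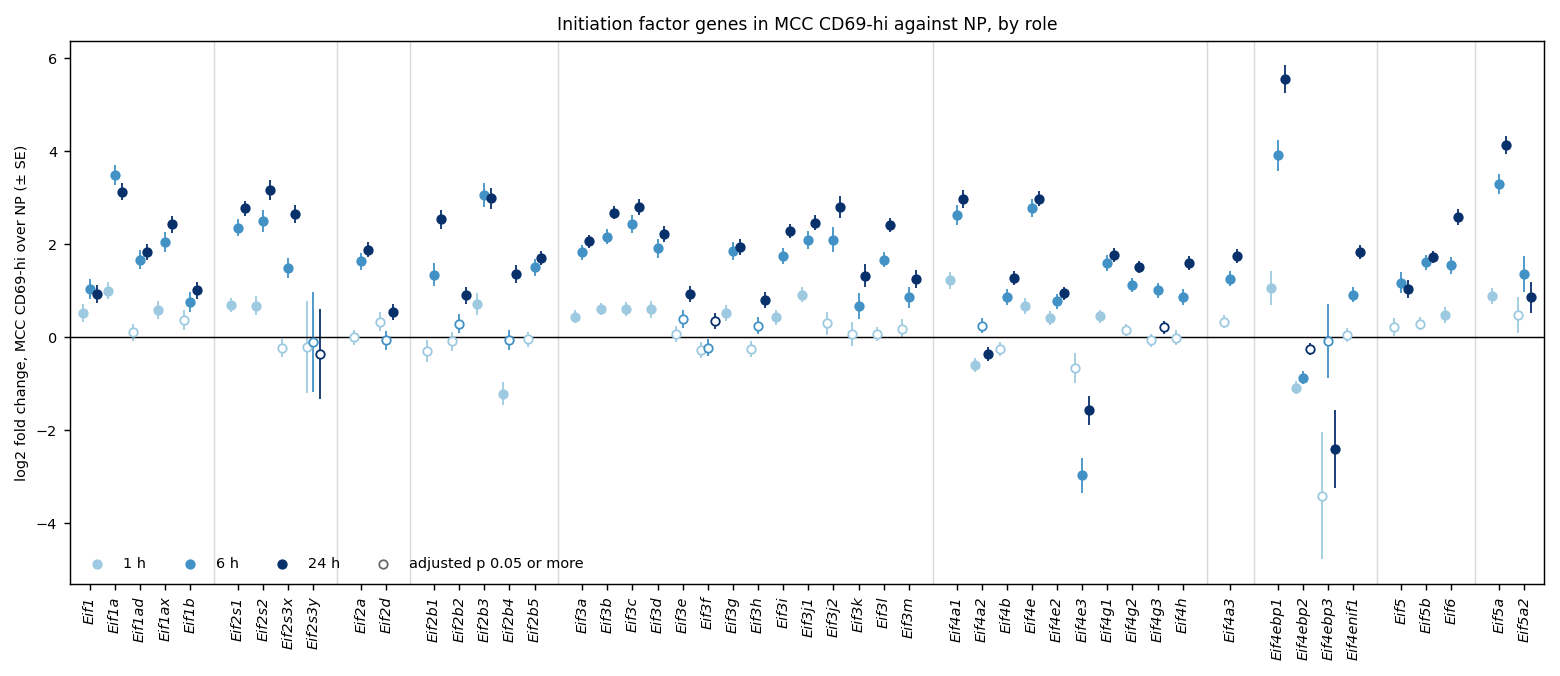
Log2 fold change of the 50 tested members in MCC CD69-hi over NP at 1, 6 and 24 h, with the standard error (SE) as bars; grey lines separate the roles, and open points did not pass the test. At 24 h the points run from -2.40 for Eif4ebp3 to 5.55 for Eif4ebp1, with 43 filled points above 0 and 3 below.

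As a share of all counts, the 51 genes together took 0.976% ± 0.0419 (SD, n = 3) in NP at 1 h, 0.822% ± 0.0379 (n = 2) at 6 h and 0.812% ± 0.0414 (n = 3) at 24 h. In MCC CD69-hi the share was 1.24% ± 0.0186 at 1 h, 1.93% ± 0.0505 at 6 h and 2.17% ± 0.0254 at 24 h (n = 3 each). The lowest MCC CD69-hi library lay above the highest NP library at each time. MCC CD69-lo libraries lay between these groups at 1 h, at 1.08% ± 0.0398 (n = 3). At 6 h they were at 0.870% ± 0.0459 (n = 2) and overlapped the NP libraries, and at 24 h they were just above the NP range, at 0.857% ± 0.00707 (n = 3).

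The genes with eIF1 and eIF1A names, listed here under start site scanning, rose as a group. Of these 5, 3 were called higher at 1 h and 5 at 6 and 24 h. Eif1ad is among them by its name, and its part in scanning was not tested. Eif1a, a form of eIF1A, which keeps the small subunit open for scanning, had the largest change of any member at 6 h after Eif4ebp1. Its level was 23.9 and 30.1 CPM in the NP libraries of 6 h and 264, 339 and 307 CPM in the MCC CD69-hi libraries. All 3 treated libraries lay above both controls, and the log2 fold change was 3.49 ± 0.22 (SE), with an adjusted p of 2.12e-20 in edgeR. It was 1.00 ± 0.18 at 1 h and 3.13 ± 0.18 at 24 h. X-linked Eif1ax, its near-identical partner, rose less, by 2.04 ± 0.22 at 6 h and 2.43 ± 0.19 at 24 h. Eif1, which guards against wrong start codons, was at 757, 754 and 489.9 CPM in NP and 868, 971 and 1038 CPM in MCC CD69-hi at 1 h. It stood at 457, 286 and 311 CPM and 695, 643 and 673 CPM at 24 h. The mean of the MCC CD69-hi libraries was highest at 1 h, and the difference from NP was 0.52 at 1 h, 1.04 at 6 h and 0.93 at 24 h on the log2 scale. Eif1b and Eif1ad rose by 1.01 and 1.84 at 24 h. Reads of close paralogs such as Eif1a and Eif1ax, Eif3j1 and Eif3j2, or Eif4a1 and its pseudogenes may have been split by the counting, so the single values of such pairs are uncertain.

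Of the 4 genes of eIF2, 3 rose at 6 and 24 h and the Y-linked Eif2s3y did not pass the test at any time. Eif2s1 encodes the subunit whose phosphorylation shuts initiation down under stress. It was at 64.3, 61.6 and 60.8 CPM in NP and 455, 396 and 427 CPM in MCC CD69-hi at 24 h. These libraries lay far apart, at 6.85-fold (log2 fold change 2.78 ± 0.16, adjusted p = 1.76e-22). Eif2s2, the beta subunit, went from 54.1, 54.2 and 59.8 CPM to 532, 475 and 505 CPM, an 8.98-fold rise (3.17 ± 0.21). At 1 h both had already risen, by 0.69 ± 0.16 for Eif2s1 and 0.68 ± 0.20 for Eif2s2. Eif2s3x, the X-linked gamma subunit, followed later. It did not pass the test at 1 h (-0.23 ± 0.19, adjusted p = 0.396), stood 2.82-fold higher at 6 h and 6.26-fold higher at 24 h.

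Eif2s3y showed how the sex-linked differences enter this family. Its levels at 24 h were 111, 1.69 and 130.3 CPM in NP and 97.4, 1.07 and 91.2 CPM in MCC CD69-hi, and the low library in each group is the one with high Xist. Its log2 fold change had an SE of 0.96 and a value of -0.36, and with a replicate block by well run within each time it was -0.38 ± 0.24 with an adjusted p of 0.176. Without replicate 2 of NP it was -0.93, and without replicate 2 of MCC CD69-hi it was 0.18. For Eif2s3x the MCC CD69-hi libraries of 24 h were at 332, 462 and 311 CPM, highest in that same replicate 2. Without it the log2 fold change of Eif2s3x was 2.42 ± 0.20, and with the block it was 2.63 ± 0.16, next to 2.65 ± 0.19 in all libraries.

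**Figure D2:**
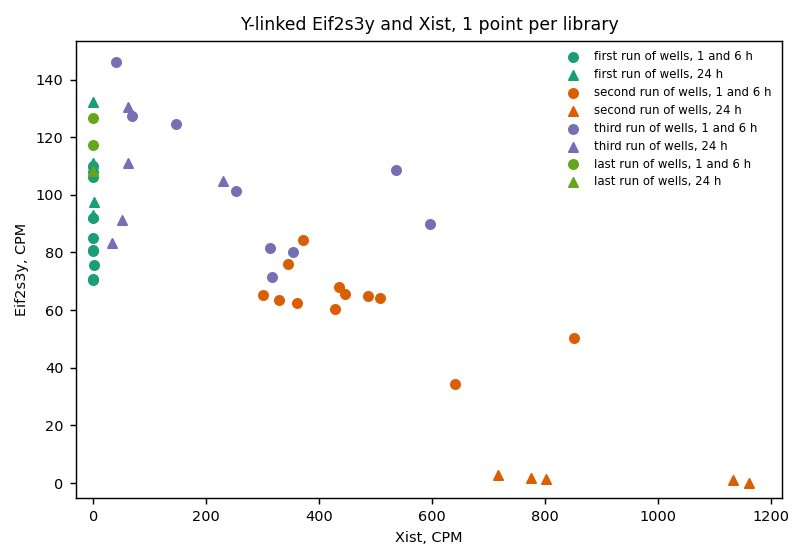
Eif2s3y against Xist in CPM, 1 point per library, coloured by run of wells, with triangles for 24 h; the 3 shallowest libraries are left out. The 5 libraries of the second run at 24 h lie at 0 to 2.83 CPM of Eif2s3y and 718 to 1162 CPM of Xist.

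The 5 subunits of eIF2B, the exchange factor that reloads eIF2 with GTP, all rose by 24 h but not in step. Eif2b3, the gamma subunit of its catalytic part, was at 10.7 and 9.15 CPM in NP and 83.1, 81.9 and 84.9 CPM in MCC CD69-hi at 6 h. That is an 8.38-fold difference (3.07 ± 0.26, adjusted p = 2.22e-15), and it was 7.94-fold at 24 h. At 1 h its libraries overlapped and its call (0.71 ± 0.24) was lost in a fit of its own 2 groups (adjusted p = 0.0693) and after adjusting for B cell RNA (adjusted p = 0.30). It was also lost without replicate 1 or replicate 3 of MCC CD69-hi (adjusted p = 0.0901 and 0.0631). Eif2b4, the delta subunit of the regulatory part, went the other way at 1 h. It was at 28.3, 21.2 and 27.2 CPM in NP and 9.06, 2.33 and 16.4 CPM in MCC CD69-hi, with every treated library below every control (-1.21 ± 0.25, adjusted p = 0.000124). At 6 h the libraries overlapped (-0.06 ± 0.22), and at 24 h Eif2b4 stood 2.59-fold higher (1.37 ± 0.20, adjusted p = 1.61e-08). Eif2b1, the alpha subunit, did not pass the test at 1 h (-0.30) and rose by 1.35 at 6 h and 2.53 at 24 h. Eif2b5, the catalytic epsilon subunit, rose by 1.51 and 1.71, and Eif2b2 passed the test at 24 h alone, by 0.91. Of the carriers that can bring initiator tRNA without eIF2, Eif2a rose by 1.63 ± 0.19 at 6 h and 1.89 ± 0.16 at 24 h. Eif2d rose at 24 h, by 0.54 ± 0.18, a call that was lost under RLE size factors (adjusted p = 0.0606), after adjusting for B cell RNA (0.0802) and without replicate 1 of NP (0.0503).

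Of the 14 genes of eIF3, the largest initiation factor, 7 rose at 1 h, 11 at 6 h and 13 at 24 h, and none fell. The rise was uneven within the complex. Eif3b, part of its RNA-binding core, was at 175, 172 and 179 CPM in NP and 1211, 1081 and 1081 CPM in MCC CD69-hi at 24 h, a 6.41-fold rise (2.68 ± 0.14, adjusted p = 3.33e-24). Eif3c was at 161, 159 and 194 CPM and 1240.0, 1149.7 and 1206 CPM, a 6.99-fold rise (2.81 ± 0.16). Both groups of libraries were tight and far apart. Eif3f, a subunit of the MPN domain type, was at 279, 257 and 348 CPM and 395, 369 and 366 CPM. Its log2 fold change of 0.36 ± 0.17 did not pass the test (adjusted p = 0.0642), and it passed with a replicate block, in the fit of the compared groups alone and without replicate 3 of NP, at adjusted p between 0.0165 and 0.0490.

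Subunits a, b, c, g and i were set against e, f, h, k and m after their values were seen. Their lack of overlap at any time in MCC CD69-hi against NP thus follows from that choice and was not tested. The first 5 changed by 0.43 to 0.61 on the log2 scale at 1 h, by 1.75 to 2.43 at 6 h and by 1.94 to 2.81 at 24 h. The second 5 changed by -0.28 to 0.19 at 1 h, by -0.22 to 0.86 at 6 h and by 0.36 to 1.33 at 24 h. At 6 h Eif3d, at 1.91, and the near-identical copies Eif3j1 and Eif3j2, at 2.09 to 2.10, lay within the range of the higher set, and Eif3l, at 1.67, lay between the sets. At 1 h Eif3l, at 0.08, lay within the range of the lower set and did not pass the test. In MCC+GP CD69-hi against GP the same sets overlapped at 1 h, at 0.25 to 0.56 and -0.35 to 0.38. They did not overlap there at 6 h (1.77 to 2.39 and -0.41 to 0.86) or at 24 h (1.86 to 2.70 and 0.34 to 1.20). The sets also overlapped at 1 h in MCC CD69-hi against CD69-lo (0.18 to 0.48 and -0.16 to 0.26), and not at 6 or 24 h. In NP at 1 h the order of levels was different: per transcript length, Eif3f at 3.89 ± 0.624 (SD, n = 3) and Eif3h at 2.71 ± 0.464 were above Eif3b at 2.11 ± 0.192 and Eif3c at 1.80 ± 0.175, in a table whose columns sum to about 10000. In MCC CD69-hi at 24 h Eif3b, at 9.77 ± 0.524, was the highest eIF3 gene on that scale.

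**Figure D3:**
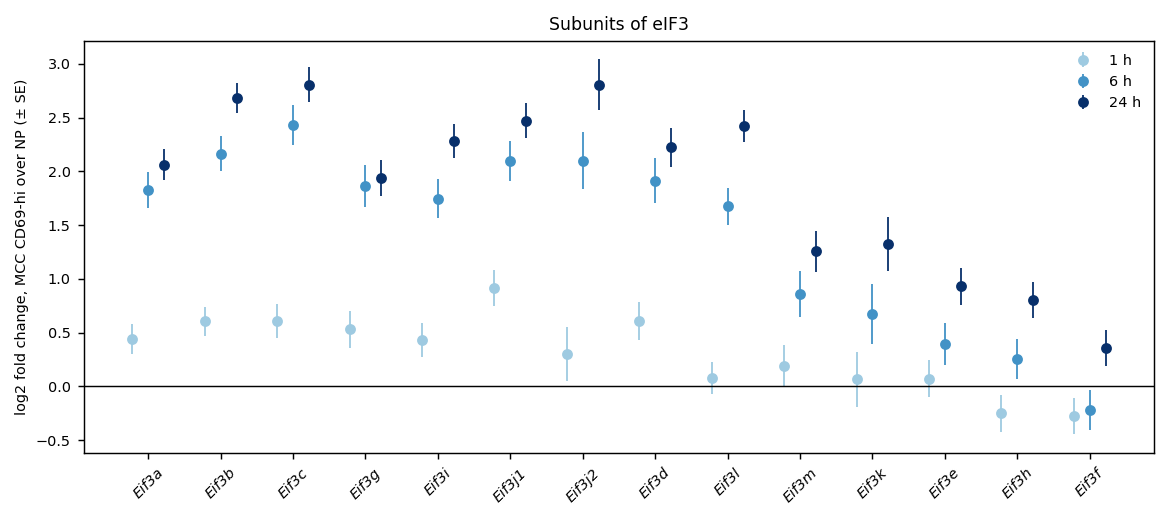
Log2 fold change of the 14 eIF3 genes in MCC CD69-hi over NP at 1, 6 and 24 h, with SE bars. At 24 h subunits a, b, c, g and i lie at 1.94 to 2.81 and e, f, h, k and m at 0.36 to 1.33.

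Within the cap-binding complex eIF4F and its helpers, 1 form of a protein rose while another did not or fell. Of 10 genes tested, 4 rose and 1 fell at 1 h, 8 rose and 1 fell at 6 h, and 7 rose and 2 fell at 24 h. Eif4e encodes the cap-binding protein (chromosome 3, 138526191 to 138559696, GRCm38.p6). It was at 30.6, 38.4 and 36.5 CPM in NP and 295, 255 and 286 CPM in MCC CD69-hi at 24 h. No libraries overlapped, and the rise was 7.92-fold (2.99 ± 0.17, adjusted p = 7.37e-23), after 0.67 ± 0.17 at 1 h and 2.78 ± 0.20 at 6 h. Eif4e3, an atypical cap-binding relative, moved the other way. It was at 19.6 and 13.5 CPM in NP and 1.78, 1.67 and 2.87 CPM in MCC CD69-hi at 6 h, a level 7.84-fold lower (-2.97 ± 0.37, adjusted p = 4.98e-10). At 24 h it was -1.57 ± 0.30, and at 1 h it did not pass the test (-0.66 ± 0.32), except with B cell RNA as a covariate (-1.35, adjusted p = 0.0204). Eif4e2, a cap-binding protein known mainly as a repressor, rose by 0.42, 0.77 and 0.95 at 1, 6 and 24 h.

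The helicase eIF4A has 2 closely related genes here. Eif4a1 (chromosome 11, 69666936 to 69672423) was at 511, 580.2 and 478 CPM in NP and 1070.1, 1258 and 1349 CPM in MCC CD69-hi at 1 h, the largest rise of any member at that time (1.23 ± 0.18, adjusted p = 2.23e-07). At 24 h the libraries were at 288, 258 and 258 CPM and 2177, 1981 and 2153 CPM, 7.85-fold apart. Eif4a2 (chromosome 16, 23107468 to 23114132) was at 662, 736 and 729 CPM and 461, 449 and 498 CPM at 1 h, lower in every treated library (-0.59 ± 0.15, adjusted p = 0.00179). It was 0.25 ± 0.17 at 6 h, where it did not pass the test, and -0.35 ± 0.15 at 24 h. The call at 1 h was lost with B cell RNA as a covariate (adjusted p = 0.0849), and that at 24 h without a filter on low counts (adjusted p = 0.0653) and without replicate 1 or 2 of NP or replicate 1 or 3 of MCC CD69-hi (adjusted p from 0.0796 to 0.108). Per length, the ratio of Eif4a1 to Eif4a2 was 0.842 ± 0.0822 (SD, n = 3) in NP and 2.97 ± 0.291 in MCC CD69-hi at 1 h. At 24 h it was 0.439 ± 0.0250 and 4.42 ± 0.479. Eif4a2 was thus the more abundant of the pair in NP and Eif4a1 in MCC CD69-hi, in every library of these groups. Eif4a3, the related helicase of the exon junction complex, rose by 1.27 ± 0.16 at 6 h and 1.75 ± 0.14 at 24 h.

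Among the scaffolds, Eif4g1 was at 546, 535 and 513 CPM in NP and 1881, 1749 and 1785 CPM in MCC CD69-hi at 24 h (1.76 ± 0.15, adjusted p = 5.63e-16). Eif4g3, its homologue, rose at 6 h from 316 and 357 CPM to 686, 724 and 627 CPM (1.01 ± 0.16). At 24 h its libraries were at 306, 322 and 293 CPM and 363, 361 and 349 CPM, and the difference did not pass the test (0.22 ± 0.14). The ratio of Eif4g1 to Eif4g3 per length was 1.92 ± 0.0692 in NP and 5.61 ± 0.203 in MCC CD69-hi at 24 h (SD, n = 3 each). Eif4g2, a relative that lacks the eIF4E site, rose by 1.13 at 6 h and 1.51 at 24 h. The helicase helpers Eif4b and Eif4h did not pass the test at 1 h and rose by 1.27 and 1.59 at 24 h.

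**Figure D4:**
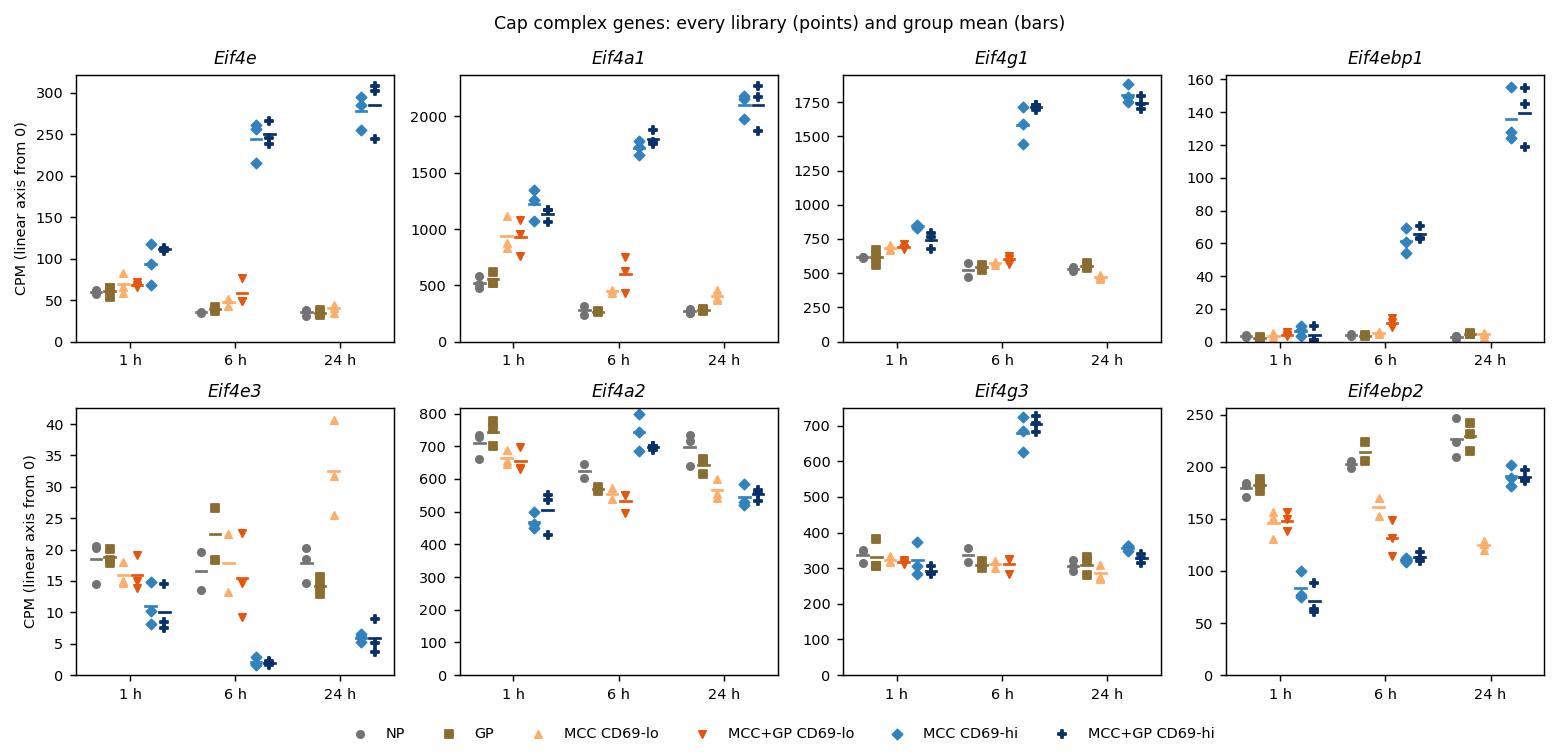
CPM in each library (points, linear axes from 0) with the group mean (bars) for Eif4e, Eif4a1, Eif4g1, Eif4ebp1, Eif4e3, Eif4a2, Eif4g3 and Eif4ebp2, by group; the shallow MCC+GP CD69-lo group at 24 h is not drawn. The CD69-hi libraries of 24 h stand above all NP libraries for Eif4e, Eif4a1, Eif4g1 and Eif4ebp1 and below them for Eif4e3.

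The largest rise of any member belonged to an inhibitor of eIF4E. Eif4ebp1 (chromosome 8, 27260327 to 27275656) was at 4.61 and 3.52 CPM in NP and 60.8, 54.2 and 69.1 CPM in MCC CD69-hi at 6 h. At 24 h it was at 3.42, 1.88 and 3.34 CPM and 155, 124 and 128 CPM, a 47.0-fold rise (5.55 ± 0.29, adjusted p = 5.86e-24). At 1 h the libraries overlapped, at 2.92, 3.60 and 4.29 CPM and 7.09, 3.50 and 9.28 CPM, and the call (1.07 ± 0.37) was lost with B cell RNA as a covariate (adjusted p = 0.219) and in the fit of the compared groups alone (adjusted p = 0.0852). It was also lost without replicate 1 of NP (adjusted p = 0.0600) and without replicate 3 of MCC CD69-hi (adjusted p = 0.177). Eif4ebp2 (chromosome 10, 61428491 to 61452790) fell at 1 h, from 184, 183 and 171 CPM to 74.8, 76.9 and 99.9 CPM, with no overlap (-1.08 ± 0.14, adjusted p = 7.17e-09). It was -0.87 ± 0.14 at 6 h and -0.25 ± 0.13 at 24 h, the last not past the test (adjusted p = 0.0917) but called under RLE size factors (-0.40), by DESeq2 (-0.41), in the fit of the compared groups alone (-0.37) and without the 3 shallowest libraries (-0.27). Per length, the ratio of Eif4ebp1 to Eif4ebp2 was 0.0146 ± 0.00462 in NP and 0.816 ± 0.0649 in MCC CD69-hi at 24 h. Eif4ebp3 was scarce, at 3.02, 0.941 and 2.73 CPM in NP and 0.704, 0 and 0.544 CPM in MCC CD69-hi at 24 h, and its call there was lost without replicate 2 of MCC CD69-hi (adjusted p = 0.0716). Eif4enif1, which carries eIF4E into the nucleus and to processing bodies, rose by 0.92 ± 0.16 at 6 h and 1.83 ± 0.14 at 24 h.

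Eif5 and Eif5b, factors of subunit joining, and Eif6, listed with them here, all rose at 6 and 24 h. Eif5, which triggers GTP hydrolysis on eIF2, changed by 1.18 ± 0.22 and 1.04 ± 0.19, and Eif5b, the GTPase that joins the subunits, by 1.61 ± 0.16 and 1.73 ± 0.14. Eif6, which holds free large subunits apart and acts in their assembly, was at 74.2, 67.2 and 76.2 CPM in NP and 446, 439 and 427 CPM in MCC CD69-hi at 24 h. Its log2 fold change was 0.48 at 1 h, 1.55 at 6 h and 2.59 at 24 h, and the call at 1 h was lost with B cell RNA as a covariate (adjusted p = 0.0943) and without replicate 3 of NP (adjusted p = 0.159). Eif5a (chromosome 11, 69916712 to 69921958), whose protein needs the modified residue hypusine, had the second largest rise of any member at 24 h. It went from 160.4, 153 and 186 CPM to 3024, 2853 and 2878 CPM, or 17.5-fold (4.13 ± 0.19, adjusted p = 2.13e-26). At 1 h it was already at 582, 506 and 502 CPM against 316, 312 and 234 CPM in NP. Its rarer relative Eif5a2 was at 11.3, 9.79 and 9.72 CPM in NP and 21.1, 15.8 and 18.8 CPM at 24 h, and at 1 h its treated libraries ran from 0 to 19.3 CPM. Its call at 24 h was lost under RLE size factors (adjusted p = 0.0675) and without replicate 1 or 3 of MCC CD69-hi or replicate 2 or 3 of NP, at adjusted p from 0.0548 to 0.0920.

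The order of levels within the family differed between NP and MCC CD69-hi. Per length, the most abundant members in NP at 1 h were Eif1 at 11.6 ± 2.46 and Eif4g2 at 11.4 ± 0.648, which did not differ beyond their spread, then Eif4a2 at 7.96 ± 0.438 and Eif4a1 at 6.68 ± 0.355 (SD, n = 3). In MCC CD69-hi at 24 h the first was Eif5a at 30.9 ± 0.567, or 14.9% of the family's sum, then Eif4a1 at 25.9 ± 1.03, Eif4g2 at 21.9 ± 1.03 and Eif1 at 11.2 ± 0.289. The 5 most abundant genes made up 47.7% of the sum in NP at 1 h and 48.0% in MCC CD69-hi at 24 h. The sum itself was 87.2 in NP at 1 h, 69.4 in NP at 24 h, and 114, 166 and 208 in MCC CD69-hi at 1, 6 and 24 h.

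Without peptide more members fell than rose over the day. From 1 h to 6 h in NP, 1 rose and 11 fell, where 16.5% of all genes were called (7.78% higher and 8.75% lower). From 1 h to 24 h, 4 rose and 21 fell, where 24% were called (11.3% and 12.6%). Eif2s2 changed by -1.19 ± 0.20, Eif4a1 by -0.96 ± 0.18 and Eif1 by -0.93 ± 0.19 over 24 h, while Eif2d changed by 0.67 ± 0.19 and Eif2b4 by 0.55 ± 0.20. Leaving out replicate 1 or 2 of NP at 6 h or replicate 2 of NP at 1 h gave 6 called members at 6 h. Leaving out replicate 1 of NP at 1 h gave 16 at 24 h, and leaving out replicate 2 of NP at 1 h or at 24 h gave 15. In MCC CD69-hi, 37 members rose and 1 fell from 1 h to 6 h and 21 rose and 3 fell from 6 h to 24 h. Of all genes 40.6% were called in the first step (22.2% higher and 18.5% lower) and 38.2% in the second (21.3% and 16.9%). Every fit without 1 library called fewer members in the second step, 17 to 19 against 24 in all libraries. The mean level was highest at 24 h for 40 members, at 6 h for 7 and at 1 h for 3.

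The log2 difference between MCC CD69-hi and NP was higher at 24 h than at 6 h for 11 members and lower for 2, by the test of that change, where 22.9% of all genes were called (13.7% higher and 9.21% lower). Eif4ebp1 (1.64 ± 0.44), Eif2b4 (1.43 ± 0.29) and Eif2b1 (1.19 ± 0.31) were among the 11, and Eif4g3 (-0.79 ± 0.21) and Eif4a2 (-0.61 ± 0.22) were the others. Among the 11, for Eif4e3 (1.40 ± 0.48) and Eif4ebp2 (0.62 ± 0.19) a positive value means a smaller fall at 24 h. Leaving out replicate 1 of NP at 6 h gave 8 called members.

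In the MCC cells sorted as CD69-lo few members differed from NP. The members' shares called were 2%, 2% and 12% at 1, 6 and 24 h, no higher than those of all genes. At 1 h, 1 rose and 0 fell, where 3.15% of all genes were called (2.72% higher and 0.436% lower). The gene was Eif4a1, at 1116, 827 and 874 CPM against 511, 580.2 and 478 CPM (0.84 ± 0.18, adjusted p = 0.00181). At 6 h the called gene was Eif1a (0.95 ± 0.22), where 2.12% were called, all higher. No member was called there without replicate 1 of NP or replicate 2 of MCC CD69-lo at 6 h. At 24 h, 5 rose and 1 fell, where 18.5% were called (9.83% higher and 8.65% lower). Eif5a was at 312, 384 and 331 CPM against 160.4, 153 and 186 CPM (1.04 ± 0.17, adjusted p = 9.24e-06), above every NP library and far below the CD69-hi level. Eif4ebp2 was at 128, 121 and 126 CPM against 209, 223 and 247 CPM (-0.86 ± 0.13, adjusted p = 2.4e-06), below the CD69-hi libraries as well. Eif4e3, which fell in CD69-hi cells, was at 40.6, 31.7 and 25.4 CPM against 18.5, 14.7 and 20.2 CPM (0.85 ± 0.30). Eif4a1, Eif2s2 and Eif1a were the others that rose. Over 14 refits Eif5a and Eif4ebp2 were called in 14, Eif1a in 12, Eif4a1 in 11, Eif2s2 in 9 and Eif4e3 in 8. Without replicate 2 of NP at 24 h, 2 members were called. B cell markers summed to 515 ± 201 CPM in these CD69-lo libraries and 209 ± 60.1 in NP, and their part in these differences was not tested beyond the covariate, with which 5 members were called. Of 17211 genes, 1159 were called higher and 1278 lower with that covariate.

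Between the sorted fractions, 7 members were higher and 3 lower in MCC CD69-hi than in CD69-lo at 1 h. At 6 h 41 were higher and 2 lower, and at 24 h 46 and 1. Of all genes, 12.5% were called at 1 h (3.46% higher and 9.06% lower), 42.4% at 6 h (19.9% and 22.5%) and 61.7% at 24 h (29.1% and 32.6%). The members higher at 1 h included Eif4ebp1 (1.21 ± 0.38), Eif3j1 (0.63 ± 0.16) and Eif5a (0.58 ± 0.17), and the lower ones were Eif2b4 (-1.11 ± 0.25), Eif4ebp2 (-0.78 ± 0.14) and Eif4a2 (-0.50 ± 0.15). Without replicate 2 of MCC CD69-lo at 1 h 3 members were called, and 4 were called without its replicate 3. RLE size factors turned the split of all called genes there from 595 higher and 1560 lower to 910 and 971, and moved the median of all genes at 24 h from -0.20 to -0.43. Eif4e3 was the member lower at 24 h (-2.42 ± 0.32), and Eif4ebp2 was higher (0.62 ± 0.13).

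GP by itself left no member called. In GP against NP, edgeR called 0 members at 1, 6 and 24 h, and 0%, 0% and 0.00581% of all genes. DESeq2 also called 0. In edgeR 0, 0 and 1 of the 50 members had an unadjusted p under 0.05, beside 138, 126 and 190 of 17211 genes. Evenly spread p-values would put a share of 0.05 of all genes there. The counts over all genes lie below it, so the test was strict here and may miss small differences. For the 37 members with at least 50 CPM at 1 h, leaving out Eif2s3y, the log2 differences ran from -0.16 to 0.15, and their 95% intervals stayed between -0.57 and 0.47. At 6 h 31 such members had intervals between -0.64 and 0.63, and at 24 h 32 had intervals between -0.46 and 0.72. For Eif5a the libraries of 24 h were at 189, 206 and 218 CPM in GP and 160.4, 153 and 186 CPM in NP. The GP libraries lay above the NP libraries by a difference of 0.30 ± 0.17 that did not pass the test (adjusted p = 1).

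Adding GP to MCC gave no called member in CD69-hi cells either. Set against MCC CD69-hi, the MCC+GP CD69-hi libraries had 0 members called by edgeR at 1, 6 and 24 h, where 0.68% (0.227% higher and 0.453% lower), 0% and 0% of all genes were called. DESeq2 called 2, 0 and 0. In edgeR 6, 0 and 0 of the 50 members had an unadjusted p under 0.05, beside 2828, 168 and 123 of 17211 genes. RLE size factors turned the split of all called genes at 1 h from 39 higher and 78 lower to 53 and 34. The smallest adjusted p at 1 h was that of Eif5b (-0.52 ± 0.14, adjusted p = 0.0657). Without replicate 2 of MCC CD69-hi at 1 h 1 member was called, and without replicate 1 of MCC+GP CD69-hi 2 were called. At 1 h, where these libraries held 930161 to 1105292 counts, 95% intervals of 38 members with at least 50 CPM lay between -0.89 and 0.58. They lay between -0.47 and 0.53 for 43 members at 6 h and between -0.44 and 0.51 for 46 members at 24 h.

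In CD69-lo cells GP added to MCC gave 0 called members at 1 and 6 h by edgeR and DESeq2, with 0% of all genes called by edgeR. Of the 50 members 1 and 6 had an unadjusted p under 0.05 in edgeR, beside 123 and 971 of 17211 genes. At 24 h 1 member rose and 9 fell, where 19.3% of all genes were called (7.37% higher and 12% lower). Eif3f (-1.02 ± 0.22), Eif2s1 (-1.23 ± 0.31) and Eif4ebp2 (-0.89 ± 0.20) were lower, and Eif4ebp1 was higher (1.70 ± 0.63, adjusted p = 0.0474). Over 13 refits Eif3f, Eif2s1 and Eif4ebp2 were called in 12 each and Eif4ebp1 in 5, with adjusted p up to 0.169. A fit limited to these 2 groups called no member, and RLE size factors gave 2 higher and 4 lower and turned the split of all called genes from 1268 higher and 2058 lower to 1739 and 1309. These 3 libraries are the shallowest, and their B cell markers summed to 1613 ± 334 CPM against 515 ± 201 in MCC CD69-lo, and their T cell markers to 5355 ± 2164 against 10574 ± 539. With B cell RNA as a covariate 6 members were called, and the part of other cells beyond it was not tested.

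The contrast with agonist could also be read wholly in the presence of GP, on libraries that the first contrast did not use. In MCC+GP CD69-hi against GP, 12 members rose and 6 fell at 1 h, 39 and 2 at 6 h, and 43 and 1 at 24 h. Of all genes, 33.8% were called at 1 h (13.7% higher and 20.1% lower), 46.7% at 6 h (23.5% and 23.2%) and 58.5% at 24 h (29.5% and 29%). RLE size factors turned the split at 1 h from 2357 higher and 3455 lower to 3247 and 2193. Of the 50 members, 14 were called in the same direction with and without GP at 1 h, 41 at 6 h and 44 at 24 h, beside 20.2%, 41.6% and 52.9% of all genes. No member had opposite calls, and 0.0523% of all genes had them at some time. Eif4ebp1 changed by 4.89 ± 0.28 at 24 h with GP and 5.55 ± 0.29 without, Eif5a by 3.84 ± 0.19 and 4.13 ± 0.19, and Eif4e3 by -1.24 ± 0.30 and -1.57 ± 0.30. Over the 50 members the Pearson correlation of the log2 differences was 0.891 at 1 h, 0.989 at 6 h and 0.996 at 24 h. It is across genes, which are not independent replicates and share the libraries of each group.

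**Figure D5:**
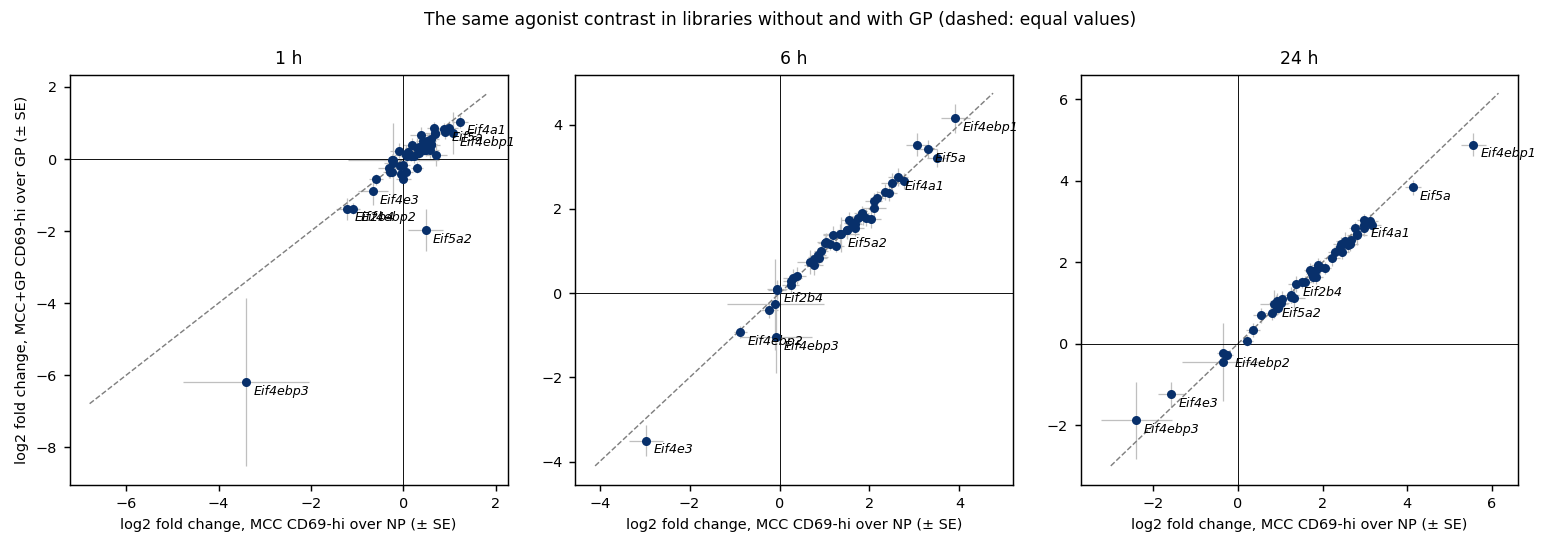
Log2 fold change of each of the 50 members in MCC+GP CD69-hi over GP against that in MCC CD69-hi over NP, at 1, 6 and 24 h, with SE bars and a dashed line of equal values. The points gather along the line at 6 and 24 h and are more spread at 1 h.

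Other genes that act on the same steps are given for MCC CD69-hi against NP at 6 h, where 46.7% of all genes were called, 23.2% higher and 23.6% lower. At 1 h 29.4% were called (12.4% higher and 17% lower) and at 24 h 57.8% (29.2% and 28.7%). The lists here and in the next paragraph are small, and a count near these shares is not a result about its list. Of the 4 eIF2 kinases 0 rose and 2 fell, with log2 fold changes of -2.34 ± 0.22 for Eif2ak3 and -1.63 ± 0.28 for Eif2ak2. Of 7 genes of the eIF2 phosphatase and stress readouts 3 rose and 0 fell, Atf4 by 1.97 ± 0.25. Counts at the other times differed: of the kinases 0 rose and 1 fell at 1 h and 1 rose and 1 fell at 24 h, and of the stress genes 2 rose and 2 fell at 1 h and 3 rose and 1 fell at 24 h. Of 11 genes of mTORC1 and MNK signalling to eIF4E 5 rose and 2 fell, next to 1 and 4 at 1 h and 4 and 2 at 24 h. Larp1, which binds mRNAs with a terminal oligopyrimidine tract, changed by 2.34 ± 0.23, and the eIF4E kinase Mknk2 by -1.81 ± 0.24. Of 6 genes of poly(A) binding and eIF4A regulation 4 rose and 2 fell at 6 h, as at 24 h, and 1 rose and 2 fell at 1 h. Pdcd4, an inhibitor of eIF4A, had the largest fall, from a mean of 283 CPM in NP to 18.1 CPM (-3.97 ± 0.20, adjusted p = 1.39e-24).

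All 6 other initiation and recycling factors rose at 6 h, among them the ribosome recycling factor Abce1 (2.20 ± 0.19) and Denr (2.02 ± 0.24), while 3 rose at 1 h and 5 at 24 h. Of 7 elongation genes 5 rose and 1 fell, the last being Eef2k, the kinase that inhibits eEF2 (-1.19 ± 0.40). At 1 h 1 of the 7 rose and 1 fell, and at 24 h 6 rose and 0 fell. Both release factor genes tested rose, Etf1 by 2.20 ± 0.19 and Gspt1 by 1.73 ± 0.18, with 1 risen at 1 h and both at 24 h. All 5 genes of spermidine synthesis and hypusination, which modify eIF5A, rose at 6 h and at 24 h. Srm, the spermidine synthase, went from a mean of 6.24 CPM in NP to 467 CPM in MCC CD69-hi at 6 h (6.23 ± 0.32, adjusted p = 8.17e-23). At 1 h 2 of these 5 had risen.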

How the data were processed

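The authors deposited whole-number counts per gene for 51 libraries of sorted T cells, and a second table of length-scaled values of TPM type whose columns sum to 9986 to 9996, used here only to compare levels between genes. Per the submitters' processing notes, bcl2fastq 2.20, STAR 2.6.1c, HTSeq 0.9.1 and the mouse build mm10 were used; parameters and the scaling of the second table are not given in the sources used here. Groups come from the labels.

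Counts were tested with edgeR 4.0.16 (R 4.3.3): TMM normalization, a filter on low counts by group that left 17211 genes, 1 coefficient per group over all 51 libraries, and the robust quasi-likelihood test with Benjamini-Hochberg adjustment at 0.05 over all genes tested. SEs of log2 fold changes derive from the test statistic, and intervals are 95%. CPM of members use TMM-scaled library sizes, and marker sums use plain totals. All members were open to naming; full values go to a set panel, to up to 4 members with the largest change each way per comparison, to members that went against their complex, and to up to 4 genes of each other list. Members and lists were chosen with earlier results of these data known. The fit was tested on simulated counts. Alternatives were RLE size factors, no filter, DESeq2 1.42.0, only the compared groups, a replicate block by run of wells, B cell RNA as a covariate, and leaving out shallow or single libraries. All 51 members matched RefSeq GRCm38.p6 for coordinates. Total counts limit precision most in the shallowest group. No sequences are shown.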

Additional observations from a re-analysis of the deposited data

Results flagged for a closer look

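The difference between MCC CD69-hi and NP at 24 h was set against that at 6 h by a test of the difference itself (edgeR's quasi-likelihood test, adjusted p under 0.05), and 13 of 50 members differed, or 26%, beside 22.9% of all genes. The count is thus near the share of all genes, and it ran from 8 to 15 when 1 library was left out. On the log2 scale, as the value at 24 h less that at 6 h, the response was larger for Eif4ebp1 (1.64), Eif2b4 (1.43), Eif2b1 (1.19), Eif2s3x (1.15), Eif6 (1.04), Eif4enif1 (0.92), Eif5a (0.84), Eif3l (0.75) and Eif4h (0.73). Eif4e3 (1.40) and Eif4ebp2 (0.62) had fallen less at 24 h than at 6 h. Eif4g3 (-0.79) had risen at 6 h and no longer passed the test at 24 h, and Eif4a2 (-0.61) went from a positive to a negative difference. Of the Eif2s3x libraries at 24 h, the highest of MCC CD69-hi is one of the 5 with high Xist.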

How the results depend on the processing

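The number of members called moved by more than 1.5 times in these cases. DESeq2 called 3 in MCC CD69-lo against NP at 1 h, 3 at 6 h and 10 at 24 h, 25 in MCC CD69-hi against CD69-lo at 1 h, 2 for MCC+GP CD69-hi over MCC CD69-hi at 1 h and 30 in MCC+GP CD69-hi against GP at 1 h, where it called 7.42%, 4.06%, 23%, 19.5%, 1.9% and 32.8% of all genes. Fits limited to the compared groups called 3 in MCC CD69-lo against NP at 6 h, 0 in MCC+GP CD69-lo against MCC CD69-lo at 24 h and 23 in the response at 24 h against 6 h. Over all genes, the first of these fits called 557 higher and 33 lower of 12313 tested. Without the 3 shallowest libraries, 2 were called in MCC CD69-lo against NP at 6 h and 1 for MCC+GP CD69-hi over MCC CD69-hi at 1 h. In the former, 372 of 16707 genes tested were called higher and 17 lower. With B cell RNA as a covariate, 6 were called in MCC+GP CD69-lo against MCC CD69-lo at 24 h, 10 in MCC CD69-hi at 24 h against 6 h and 8 in the response, and RLE size factors gave 6 in that CD69-lo comparison. Where no count over all genes stands beside a refit, a change in member count cannot be told from a change over all genes. The causes were not tested.

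A replicate block by run of wells called 24, 41 and 47 members in MCC CD69-hi against NP at 1, 6 and 24 h. Of 17211 genes it called 2290 higher and 3134 lower at 1 h. The split was 4188 and 4204 at 6 h and 5170 and 5140 at 24 h. Taken within each time, a replicate block chosen after seeing the data called 25, 41 and 47, 2 in MCC CD69-lo against NP at 6 h and 1 for MCC+GP CD69-hi over MCC CD69-hi at 1 h. This block counts the last wells with the first run. In MCC CD69-hi against NP it called 2207 genes higher and 3158 lower at 1 h. The split was 4086 and 4151 at 6 h and 5179 and 5078 at 24 h. In MCC CD69-lo against NP at 6 h it called 599 higher and 6 lower. Over all genes tested, deviations from the group means had a mean correlation of 0.108 (lowest -0.0652) between libraries of the same run. Between runs it was -0.0453 (lowest -0.416), and nothing in the labels pairs the libraries. Deviations within a small group cancel out by construction, which shifts these values. The size of a difference between runs therefore cannot be read from them. Such a mean does not speak for single genes, and sex-linked RNA did differ between runs.

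Leaving out 1 library gave 15 to 25 called members in MCC CD69-hi against NP at 1 h, 0 to 1 in MCC CD69-lo against NP at 6 h and 2 to 5 at 24 h. It gave 3 to 13 in MCC CD69-hi against CD69-lo at 1 h, 0 to 2 for MCC+GP CD69-hi over MCC CD69-hi at 1 h, 6 to 15 in NP at 6 h against 1 h, 15 to 25 in NP at 24 h against 1 h and 8 to 15 in the response. In MCC CD69-hi at 24 h against 6 h it gave 17 to 19, against 24 in all libraries. Shares over all genes are not set beside these counts, so a change in them may not be particular to the members. No member that had been called turned its direction under any setting tried for MCC CD69-hi against NP. Depth limits MCC+GP CD69-lo at 24 h most, and Eif4ebp3, Eif5a2 and Eif4e1b everywhere.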
